A study of Mus musculus with 2 samples.

Results

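UDP-glucuronosyltransferases (UGTs) and cytosolic sulfotransferases (SULTs) are the conjugating enzymes of the liver. UGTs sit in the membrane of the endoplasmic reticulum and transfer a sugar, most often glucuronic acid, to bilirubin, steroids, bile acids and drugs. SULTs work in the cytosol and transfer sulfate from the donor PAPS to phenols, steroids and bile acids, and both reactions make their substrates more soluble, so that transporters can move them into bile or blood. Hepatocytes along the liver lobule differ in these reactions, and glucuronidation is known as a mainly perivenous function.

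The genes were chosen by symbol: all Ugt1, Ugt2, Ugt3 and Ugt8 genes and all Sult1 to Sult6 genes, without pseudogenes. They came to 41 of the 27998 genes listed, 22 of them UGTs and 19 SULTs. Of the 41, 24 had at least 10 UMIs over both libraries and are described by value, 5 had 1 to 5 UMIs, and 12 had none. A UMI (unique molecular identifier) marks 1 captured transcript molecule. A count of 0 allows up to 3 UMIs, which was 0.0333 CPM (UMIs per 1000000 UMIs) in the library of undamaged liver and 0.262 CPM in the library taken after surgery. The 12 genes without a UMI were Ugt1a2, Ugt1a10, Ugt2a1, Ugt2a2, Sult1c1, Sult2a3 to Sult2a6, Sult3a1, Sult4a1 and Sult6b1, and those with 1 to 5 were Ugt1a8, Ugt8a, Sult2a1, Sult2a2 and Sult2b1.

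Collagenase perfusion was used to isolate hepatocytes from mice on a normal diet. The mice were C57BL/6 and 10 to 12 weeks old per the labels, and male C57BL/6J per the study's methods. Those methods give a lower age range, at surgery. There were 2 libraries, PHx0h from a healthy, undamaged liver and PHx48h from a liver 48 h after partial hepatectomy (PHx), an operation that removes the larger part of the organ. Each was a droplet library of the 3′ ends of transcripts from 1 hepatocyte preparation of 1 mouse. The design therefore held 1 library per group, so no test was possible, and the time point cannot be told apart from the mouse or the preparation. Intervals given with values are exact 95% intervals that cover counting error only.

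The 0 h library held 59202 barcodes and 96118593 UMIs, and the 48 h library 1586 barcodes and 18198719 UMIs. Barcodes fell into classes by the share of their UMIs from 13 mitochondrial (mt) genes. Over 30% mt there were 3870 barcodes at 0 h and 765 at 48 h, with a median of 1214 and 4411 non-mt UMIs. Under 2% mt there were 52587 and 522 barcodes, with a median of 1413 and 5272 non-mt UMIs and a minimum of 1162 and 4506. After its own filtering, the study kept far fewer cells of undamaged liver than the 0 h library holds barcodes. It states that cells with a high mt share were left out, and its text gives no limit. How many of the barcodes over 30% mt were among the cells it analysed is therefore not known here. Which barcodes were intact hepatocytes was not tested. All levels below are CPM of non-mt UMIs summed over the barcodes of a class, and since a 3′ library yields 1 tag per molecule, they were not divided by transcript length. The 9 hepatocyte markers found in the files summed to 107182 and 105177 CPM over 30% mt, and to 85509 and 73227 CPM under 2% mt. Markers of other cells were low over 30% mt, where macrophage, endothelial and stromal lists of 10 genes each summed to between 20.8 and 65.1 CPM in both libraries, and no T, NK or B cell marker had a UMI at 48 h. Under 2% mt, the stromal list was at 25.2 CPM at 0 h and 153 CPM at 48 h, led by Dcn, and 4 hemoglobin genes were at 162 and 1.59 CPM. Barcodes rich in markers of macrophages, endothelial, stromal or T and NK cells numbered 268 at 0 h and 43 at 48 h, and leaving them out changed neither class's counts of genes past 2-fold between the libraries given below. No doublet caller was run, and 148 barcode sequences occurred in both libraries.

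Ugt2b genes made up most of the counted UGT and SULT UMIs, among which the part of Ugt1a is uncertain, as given below. Over 30% mt, Ugt2b UMIs were 77.7% of all UGT and SULT UMIs at 0 h and 77.3% at 48 h. The summed Ugt2b level was 4153 CPM at 0 h and 2975 CPM at 48 h, a ratio of 0.716 (0.702 to 0.731). Under 2% mt it was 6051 and 1616 CPM, a ratio of 0.267 (0.260 to 0.275), and Ugt2b UMIs were 72.8% of all UGT and SULT UMIs at 0 h and 59.7% at 48 h. The Ugt2b level was thus lower at 48 h in both classes, and by more in the barcodes with little mt RNA.

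The 7 Ugt2b genes lie with Ugt2a3, Sult1b1 and Sult1d1 in a cluster on chromosome 5, and all 7 passed 10 UMIs. Ugt2b5, Ugt2b37 and Ugt2b38 are the closest of them in sequence. Over 21 pairs, the open reading frames were 71.3% to 97.0% identical, and the highest value was that of Ugt2b5 and Ugt2b38, whereas Ugt2b5 and Ugt2b37 were at 94.7% and Ugt2b37 and Ugt2b38 at 94.1%. The 250 bases before their starts were 84.8%, 79.6% and 89.6% identical for the same pairs, against a median of 52.8% over all pairs. Their promoters are shown because these near-identical genes had unlike levels, and the ratio of Ugt2b38 between the libraries was unlike those of Ugt2b5 and Ugt2b37. The 150 bases before the start are printed from RefSeq, build GRCm38.p6, all on the minus strand, at chr5:87140341-87140490 for Ugt2b5, chr5:87254789-87254938 for Ugt2b37 and chr5:87424204-87424353 for Ugt2b38. Capitals mark the longest run shared by all 3, which is 62 bases long and ends 6, 23 and 9 bases before the RefSeq start. For Ugt2b5 and Ugt2b37 this start is not that of the gene positions given below, so the distances depend on the annotation.
Ugt2b5: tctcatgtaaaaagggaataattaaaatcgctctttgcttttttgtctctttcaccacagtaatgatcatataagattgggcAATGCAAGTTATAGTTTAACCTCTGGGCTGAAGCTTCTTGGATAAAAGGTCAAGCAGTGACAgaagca
Ugt2b37: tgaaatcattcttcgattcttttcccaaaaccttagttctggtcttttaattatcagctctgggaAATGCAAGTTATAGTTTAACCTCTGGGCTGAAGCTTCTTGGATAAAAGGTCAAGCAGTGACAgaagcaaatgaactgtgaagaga
Ugt2b38: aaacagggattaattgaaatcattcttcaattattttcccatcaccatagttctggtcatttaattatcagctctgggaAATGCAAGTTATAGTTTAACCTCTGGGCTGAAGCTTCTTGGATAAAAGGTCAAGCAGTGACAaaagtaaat
Of 32851 mouse promoters in the same table, these 3 held the run.

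Ugt2b5 (ENSMUSG00000054630, chr5:87124960-87140318), an enzyme of steroid and bile acid glucuronidation, had the highest level of the 41 genes with 1 exception. Under 2% mt at 48 h, Sult1a1 was above it, at 623 against 581 CPM. Over 30% mt it was at 1445 CPM (1415 to 1477) at 0 h and 1273 CPM (1242 to 1304) at 48 h. In barcodes under 2% mt the level was 2167 and 581 CPM, a 3.73-fold lower level at 48 h (3.56 to 3.91). As CPM of non-mt UMIs, the gene was therefore near its 0 h level in one class and well below it in the other. Over 30% mt its log2 ratio of -0.18 was -0.74 with edgeR's TMM scaling and -0.72 with DESeq2 size factors.

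Ugt2b38 (ENSMUSG00000061906, chr5:87409942-87424203) had the lowest ratio of all 15 genes with a mean level of at least 5 CPM in both classes. Over 30% mt it was at 115 CPM (107 to 125) at 0 h and 9.60 CPM (7.10 to 12.7) at 48 h, 12.0-fold lower (8.99 to 16.4). Its levels under 2% mt were 138 and 3.51 CPM, 39.3-fold lower (22.0 to 78.8), with 11 UMIs at 48 h. Ugt2b37 (ENSMUSG00000057425, chr5:87240493-87254804) was the lowest of the Ugt2b genes at 0 h in both classes. It was at 13.2 CPM (10.4 to 16.5) and 14.1 CPM (11.0 to 17.8) over 30% mt, intervals that overlap, and at 19.3 and 6.38 CPM under 2% mt, where 20 UMIs at 48 h made it 3.02-fold lower (1.95 to 4.96).

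The ratios of Ugt2b5 and Ugt2b38 were 3.40 apart on the log2 scale in both classes, and those of Ugt2b5 and Ugt2b37 were 0.28 apart over 30% mt and 0.30 apart under 2% mt. The last 500 bases of the longest protein-coding transcript of each Ugt2b gene were searched. No stretch of 90 bases within them occurred in a transcript of another gene, so that each of these stretches named 1 gene. Between the 3 genes, these last 500 bases were 86.4% to 89.8% identical. Ends of other transcripts of the Ugt2b genes were not searched.

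**Figure D1:**
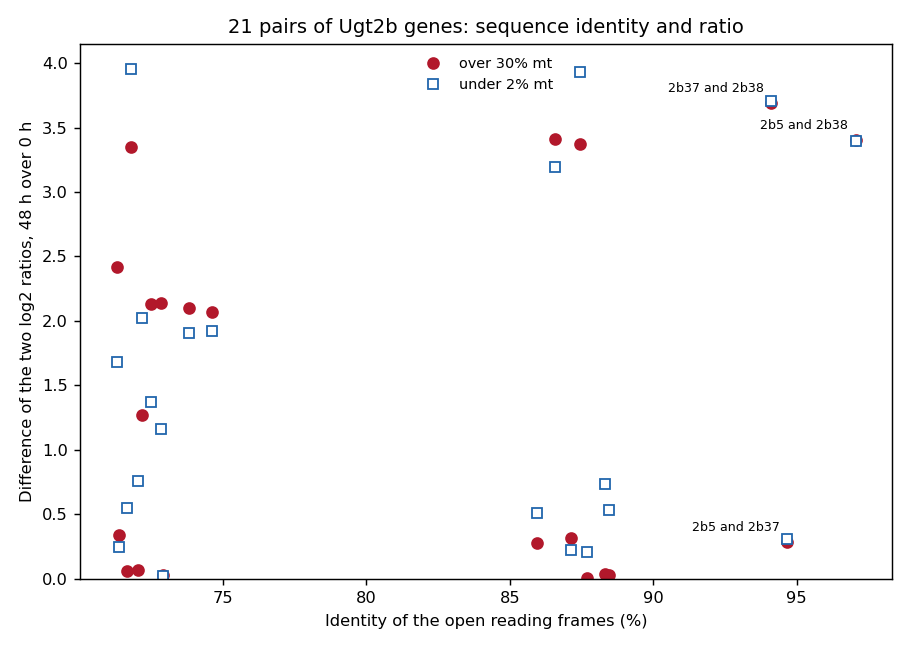
Each point is 1 of the 21 pairs of Ugt2b genes, with the identity of their open reading frames (%) on the x axis and the difference between their log2 ratios (48 h over 0 h) on the y axis, filled for barcodes over 30% mt and open for those under 2% mt. Pairs share genes and are not independent: at the right, the pair Ugt2b5 and Ugt2b38 lies at 3.40, and Ugt2b5 and Ugt2b37 at 0.28 over 30% mt.

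Ugt2b1 (ENSMUSG00000035836, chr5:86916638-86926530), a drug and steroid glucuronosyltransferase, was the other Ugt2b gene far below its 0 h level in both classes. Over 30% mt it was at 821 CPM (798 to 845) at 0 h and 165 CPM (154 to 177) at 48 h, 4.97-fold lower (4.62 to 5.36). Its levels under 2% mt were 1173 and 121 CPM, 9.66-fold lower (8.73 to 10.7). Over 30% mt it stood close to Ugt2b36 at 0 h and far below it at 48 h.

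Ugt2b34, Ugt2b35 and Ugt2b36 behaved much like Ugt2b5. Ugt2b36 was at 846 and 730 CPM over 30% mt and at 1313 and 509 CPM under 2% mt, 2.58-fold lower in the latter. Ugt2b34 was at 636 and 538 CPM over 30% mt and at 666 and 262 CPM under 2% mt, 2.54-fold lower. Ugt2b35 was at 277 and 246 CPM over 30% mt and at 574 and 133 CPM under 2% mt, 4.31-fold lower. Over 30% mt the ratios of these 3 genes and Ugt2b5 lay between 0.846 and 0.886, so that their 48 h levels were 1.13-fold to 1.18-fold lower, and none of their counting intervals reached 1. With TMM scaling the log2 ratios in that class were -0.80 for Ugt2b34, -0.74 for Ugt2b35 and -0.77 for Ugt2b36. The order of the levels was the same at both times in that class for Ugt2b5, Ugt2b36, Ugt2b34 and Ugt2b35, and Ugt2b1 moved from above Ugt2b34 to below Ugt2b35. Ugt2a3, a bile acid glucuronosyltransferase beside the Ugt2b genes, was at 268 and 147 CPM over 30% mt, 1.82-fold lower (1.67 to 1.99), and at 348 and 105 CPM under 2% mt, 3.31-fold lower.

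**Figure D2:**
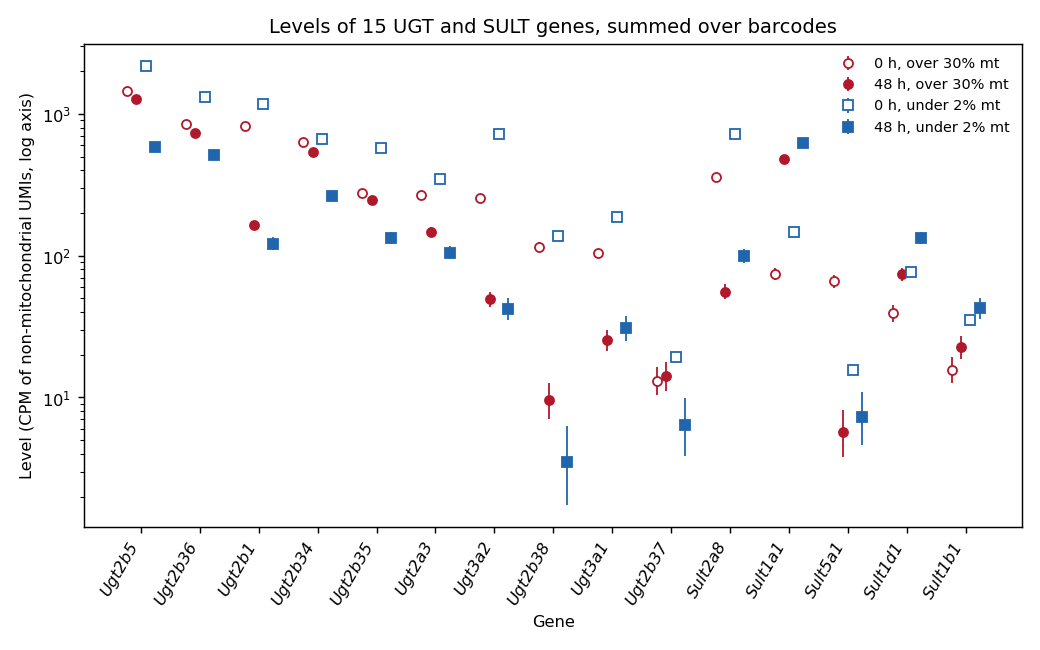
Levels of the 15 genes with a mean of at least 5 CPM in both classes are on a log axis in CPM of non-mt UMIs, with open symbols for 0 h, filled symbols for 48 h, circles for barcodes over 30% mt and squares for those under 2% mt, and bars for exact 95% counting intervals. Sult1a1 is the gene whose 48 h symbols stand far above its 0 h symbols, at 480 against 73.9 CPM over 30% mt, and Ugt2b38 and Sult5a1 have the largest gaps between 0 h and 48 h over 30% mt.

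Both Ugt3a genes, which use other UDP sugars than glucuronic acid, were low at 48 h in both classes. Ugt3a2 (ENSMUSG00000049152, chr15:9335550-9370955) was at 254 CPM (241 to 267) and 49.4 CPM (43.5 to 55.9) over 30% mt, 5.14-fold lower (4.50 to 5.90). In the class under 2% mt it was at 717 and 42.1 CPM, 17.0-fold lower (14.4 to 20.4). Ugt3a1, its neighbour with a 93.3% identical open reading frame, was at 104 and 25.3 CPM over 30% mt, 4.10-fold lower (3.39 to 5.0), and at 189 and 30.9 CPM under 2% mt, 6.10-fold lower (5.0 to 7.53). At 0 h Ugt3a2 exceeded Ugt3a1 in both classes, and at 48 h the excess was smaller. As a share of all UGT and SULT UMIs over 30% mt, Ugt3a came to 6.69% at 0 h and 1.94% at 48 h.

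The Ugt1a genes, among them the bilirubin enzyme Ugt1a1, could be read only by their counts. In 8 of the 9, the last 500 bases of the longest protein-coding transcript were found whole in other Ugt1a transcripts, because these genes share their last exons. A read from a shared exon does not name 1 gene, so that the levels are uncertain. The part of Ugt1a in the UGT sums and in the shares of UGT and SULT UMIs is uncertain too. Ugt1a1, the highest of them at 0 h, had 30 and 7 UMIs over 30% mt, which was 5.19 CPM (3.50 to 7.41) and 1.37 CPM (0.551 to 2.83). Under 2% mt it had 448 and 2 UMIs, or 5.69 and 0.638 CPM, with a level 8.92-fold lower at 48 h (2.45 to 73.9). Ugt1a6a, which acts on planar phenols, had 17 and 14 UMIs over 30% mt, Ugt1a7c had 9 and 18, and Ugt1a5, Ugt1a6b and Ugt1a9 had between 0 and 7 in either library. Summed over 9 genes, Ugt1a was at 10.0 CPM (7.62 to 13.0) and 10.4 CPM (7.78 to 13.6) over 30% mt. The sum under 2% mt was 10.1 and 3.19 CPM, 799 and 10 UMIs.

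The SULT genes did not share 1 direction. Sult1a1 (ENSMUSG00000030711, chr7:126672865-126676432), the main phenol sulfotransferase of liver, was the only one of the 15 genes at least 2-fold higher at 48 h, and it was so in both classes. Over 30% mt it was at 73.9 CPM (67.1 to 81.2) at 0 h and 480 CPM (462 to 500) at 48 h, 6.50-fold higher (5.86 to 7.22). Under 2% mt it was at 146 and 623 CPM, 4.26-fold higher (4.06 to 4.47). Its share of all UGT and SULT UMIs over 30% mt was 1.38% at 0 h and 12.5% at 48 h, which made it the SULT with the highest level at 48 h in both classes.

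Sult2a8 (ENSMUSG00000030378, chr7:14410686-14446769), a bile acid sulfotransferase of mouse liver, was the SULT with the highest level at 0 h. Over 30% mt it was at 359 CPM (344 to 375) at 0 h and 55.8 CPM (49.5 to 62.7) at 48 h, 6.43-fold lower (5.68 to 7.30). Under 2% mt it was at 717 and 99.2 CPM, 7.23-fold lower (6.47 to 8.11). At 0 h Sult2a8 was above Sult1a1 and at 48 h below it, in both classes. Of the other Sult2a genes, Sult2a7 had 39 UMIs in the whole 0 h library and 9 in the 48 h library, and Sult2a2, Sult2a4 and Sult2a5 shared 9.73% to 34.5% of their last stretches of 90 bases with other genes, so their counts are uncertain.

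Sult5a1 (ENSMUSG00000000739, chr8:123140192-123158315) was at 65.8 CPM (59.3 to 72.7) and 5.68 CPM (3.81 to 8.16) over 30% mt, 11.6-fold lower (7.93 to 17.5). Under 2% mt it was at 15.7 CPM (14.9 to 16.6) and 7.33 CPM (4.65 to 11.0), 2.14-fold lower (1.42 to 3.39). Among the 12 genes at least 2-fold lower under 2% mt, Sult5a1 alone had a larger fold over 30% mt.

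Sult1d1 and Sult1b1 differed less. Sult1d1, which sulfates catecholamines and other phenols, was at 39.1 CPM (34.2 to 44.6) and 74.1 CPM (66.8 to 81.9) over 30% mt, 1.89-fold higher (1.60 to 2.24), and at 76.6 and 134 CPM under 2% mt, 1.75-fold higher (1.58 to 1.93). Sult1b1, a sulfotransferase of thyroid hormones and phenols, was at 15.7 and 22.5 CPM over 30% mt, a ratio of 1.43 (1.08 to 1.90), and at 35.3 and 42.4 CPM under 2% mt, a ratio of 1.20 (1.003 to 1.43). The ratio of Sult1b1 turned below 1 over 30% mt with edgeR's TMM scaling (log2 ratio -0.04) and with DESeq2 size factors (-0.02), and under 2% mt with TMM scaling (-0.08). Sult1e1, the estrogen sulfotransferase, had 0 and 4 UMIs over 30% mt and 23 and 3 under 2% mt, and Sult1c2 had 4 and 5, and 93 and 4.

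Summed over all 22 genes, UGTs were at 4789 CPM (4733 to 4846) and 3207 CPM (3158 to 3257) over 30% mt, a ratio of 0.670 (0.657 to 0.683). Under 2% mt they were at 7316 and 1798 CPM, a ratio of 0.246 (0.239 to 0.252). The 19 SULTs summed to 554 CPM (535 to 574) and 641 CPM (619 to 663) over 30% mt, a ratio of 1.16 (1.10 to 1.22), which turned below 1 with all UMIs as the denominator (0.966), TMM scaling (0.784) and DESeq2 size factors (0.799). Under 2% mt they summed to 993 and 910 CPM, a ratio of 0.916 (0.882 to 0.951). Within these sums, the higher Sult1a1 and the lower Sult2a8 lay against each other.

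**Figure D3:**
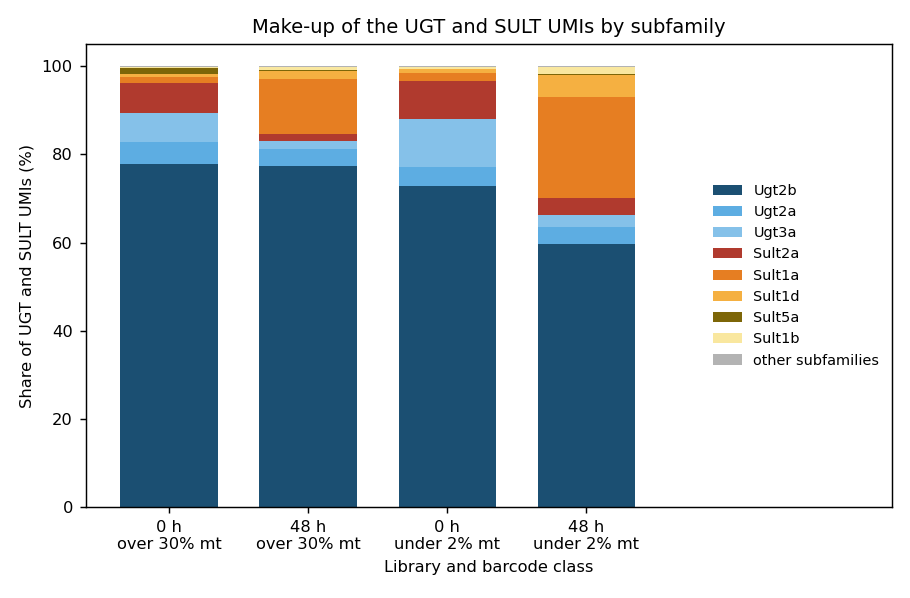
Stacked bars give the share (%) of all UGT and SULT UMIs that each subfamily holds, for 0 h and 48 h in barcodes over 30% mt and under 2% mt. Over 30% mt the Sult1a block is 1.38% at 0 h and 12.5% at 48 h, the Sult2a block is 6.72% and 1.47%, and the Ugt2b block is 77.7% and 77.3%, whereas under 2% mt the Ugt2b block is 72.8% and 59.7%.

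Counted by gene, 15 of the 41 had a mean level of at least 5 CPM over 30% mt, 10 UGTs and 5 SULTs. A gene was called lower or higher at a 2-fold difference. Of all 8533 genes at that level, 5.14% were at least 2-fold lower and 30.9% at least 2-fold higher at 48 h. Of the 15, 6 were lower (Ugt2b1, Ugt2b38, Ugt3a1, Ugt3a2, Sult2a8 and Sult5a1), 1 was higher (Sult1a1) and 8 were within 2-fold. Their median log2 ratio was -0.24 beside 0.55 for all genes. Since the median gene was itself higher at 48 h, all but Sult1a1 and Sult1d1 lay below it, and 7 were at least 2-fold below it, the 6 named and Ugt2a3.

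Under 2% mt, 20.7% of 7530 genes were at least 2-fold lower and 24.3% at least 2-fold higher. The same 15 genes were at the level, of which 12 were lower, 1 was higher (Sult1a1) and 2 were within 2-fold (Sult1b1 and Sult1d1). All 10 UGTs at the level were among the 12. The median log2 ratio of the 15 was -1.73 beside 0.05 for all genes. TMM scaling moved the background of all genes to 14.4% lower and 13.6% higher over 30% mt, and to 29.6% and 16.7% under 2% mt, since it divided every ratio by 1.48 and 1.27. No call of a gene changed its sign under any alternative tried. Under 2% mt the depth of barcodes, the markers of stromal cells and the hemoglobin genes differed between the libraries as given above. Their part in these ratios was not tested.

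The barcodes with 2% to 30% mt, 2745 at 0 h and 299 at 48 h, were in neither class. In them, 7.4% of all genes were at least 2-fold lower at 48 h and 21.5% at least 2-fold higher, and of 15 UGT and SULT genes 10 were lower and 1 was higher. Sult1a1 was at 121 and 410 CPM, 3.40-fold higher (3.10 to 3.73), and Ugt2b38 at 110 and 2.79 CPM, 39.6-fold lower (20.7 to 87.0), on 9 UMIs at 48 h. Ugt2b5 was at 1781 and 641 CPM, 2.78-fold lower, and Ugt2b34 at 603 and 453 CPM, 1.33-fold lower. The summed UGT ratio of 0.346 (0.337 to 0.355) was between those of the other classes. Barcodes rich in markers of other cells were 8.74% of this class at 0 h and 13.4% at 48 h, and their part in these values was not tested.

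**Figure D4:**
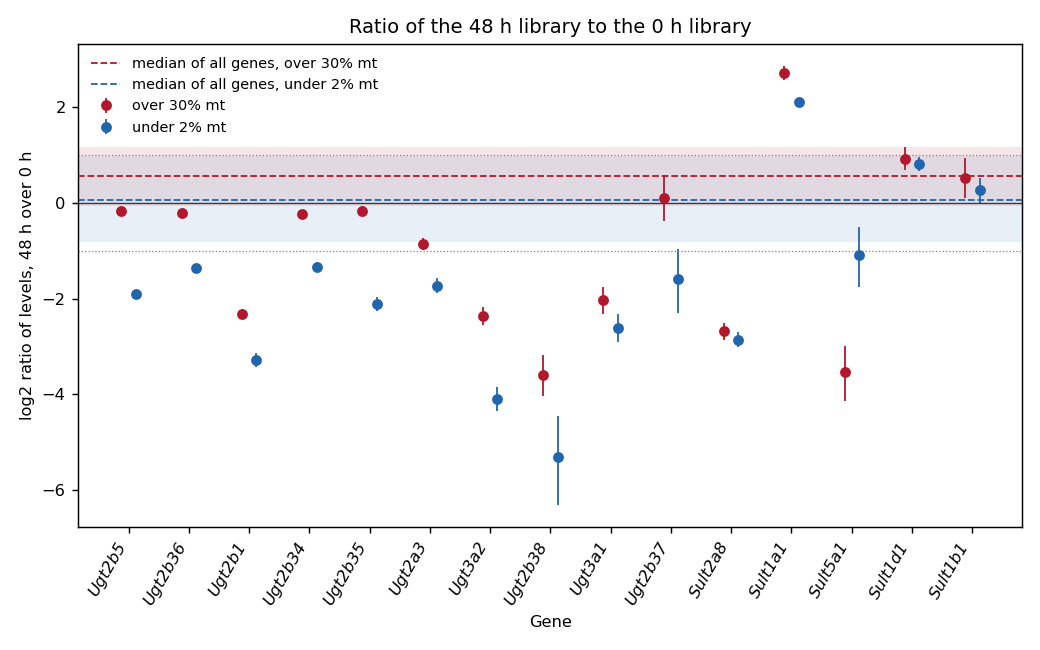
Points give the log2 ratio of the level at 48 h to that at 0 h for the 15 genes, red for barcodes over 30% mt and blue for those under 2% mt, with 95% counting intervals as bars, the median of all genes as dashed lines (0.55 and 0.05), their middle quartiles as bands, and 2-fold limits as dotted lines. The UGT genes lie below 0 under 2% mt, Ugt2b5, Ugt2b36, Ugt2b34 and Ugt2b35 lie near 0 over 30% mt, and Sult1a1 lies above both bands.

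The classes were also compared with each other within a library. At 0 h the summed UGT level over 30% mt was 0.655 (0.647 to 0.663) of that under 2% mt, and at 48 h it was 1.78 (1.73 to 1.84) times that level. For SULTs the same ratios were 0.558 (0.538 to 0.578) and 0.705 (0.670 to 0.741). The UGT sum was thus lower in the mt-rich barcodes of undamaged liver and higher in those of regenerating liver, whereas the SULT sum was lower in the mt-rich barcodes of both. The median gene had a log2 ratio of -0.02 at 0 h and 0.60 at 48 h between the classes. Beside it, the UGT sum was at -0.61 and 0.83 and the SULT sum at -0.84 and -0.50.

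At 0 h, 9.63% of all genes were at least 2-fold lower over 30% mt than under 2% mt and 13.2% were at least 2-fold higher. Among 16 UGT and SULT genes at the level, Ugt3a2 (2.83-fold), Sult1b1 (2.24-fold) and Ugt2b35 (2.07-fold) were lower and Sult5a1 was higher, at 65.8 against 15.7 CPM, 4.18-fold (3.72 to 4.70). At 48 h, 6.64% of all genes were lower and 34.9% higher. Of 15 genes, 4 were higher over 30% mt, namely Ugt2b38 (2.74-fold), Ugt2b37 (2.21-fold), Ugt2b5 (2.19-fold) and Ugt2b34 (2.05-fold), and none was lower. These 48 h differences stood beside a median log2 ratio of 0.60 for all genes. Sult5a1 was not among them, at 5.68 against 7.33 CPM.

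The share of barcodes with a UMI of a gene was read after each barcode had been thinned to 500 non-mt UMIs, which left out 75 barcodes over 30% mt at 0 h. Barcodes rich in markers of other cell types served as the background and had medians of 2696 and 5527 non-mt UMIs before thinning. This background was not matched by mt share. At 0 h, 2 of its 268 barcodes were over 30% mt and 240 were at 2% to 30% mt, and at 48 h none of 43 was over 30% mt. Sult1a1 had a UMI in 3.51% (2.94 to 4.14) of barcodes over 30% mt at 0 h, beside a background of 5.97% (3.45 to 9.51). At 48 h it was found in 22.7% (19.8 to 25.9), where the background was 11.6% (3.89 to 25.1), and the intervals overlap at both times. Without thinning these shares were 9.85% and 81.8%, beside 25.4% and 51.2%. Ugt2b5 was found in 50.8% at 0 h and 45.6% at 48 h, with backgrounds of 41.8% and 16.3%, and without thinning in 79.6% and 97.4%. Sult2a8 was found in 15.8% at 0 h, where the background, mostly of another mt class, was 17.2%. The share was thus not above this background, but the 2 were not matched by mt share. At 48 h it was found in 2.35%, beside 1 of 43 background barcodes, or 2.33% (0.0589 to 12.3), too few to set the shares apart. At 1000 UMIs the 48 h shares of Sult2a8 were 6.04% and 2.33%, and without thinning its shares were 36.5% at 0 h and 27.3% at 48 h, beside backgrounds of 69.4% and 14.0%. Sult5a1 was found in 3.27% (2.73 to 3.89) at 0 h, over a background of 0.373% (0.00945 to 2.06), and in 0.795% of barcodes under 2% mt. Its share over 30% mt at 0 h was 8.27% without thinning. Transcripts of these hepatocyte genes were thus counted in barcodes that carried markers of other cells as well, at 0 h and after thinning in shares near those of the mt-rich barcodes for Ugt2b1 (28.0% and 32.7%), Ugt2b5 and Sult2a8.

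The lobular position of the genes was examined in barcodes over 30% mt by ranking them on the share of perivenous UMIs among UMIs of 8 perivenous and 10 periportal landmark genes, none of them a UGT or SULT. At least 10 landmark UMIs were found in 2486 barcodes at 0 h and 756 at 48 h, and the outer groups held 828 and 252 barcodes each. The landmark Glul, glutamine synthetase of perivenous cells, went from 63.6 CPM in the periportal to 1462 CPM in the perivenous group at 0 h and from 45.6 to 484 CPM at 48 h, which checks the ranking but is no result, since it was used in it. Of the barcodes, 544 and 241 lay within 0.05 of a limit between the groups. The periportal group was deeper, with a mean of 2163 against 1436 non-mt UMIs at 0 h and 8970 against 4948 at 48 h, and the part of depth in these ratios was not tested.

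At 0 h, 2.89% of all genes were at least 2-fold lower in the perivenous group and 11.1% at least 2-fold higher, with a median log2 ratio of 0.28. Of 16 UGT and SULT genes, 2 were lower there and 2 higher. Sult5a1 was at 97.1 CPM in the periportal, 54.3 CPM in the middle and 10.1 CPM in the perivenous group, 9.62-fold lower. Ugt2b38 was at 171, 98.7 and 47.9 CPM, 3.57-fold lower. The 2 higher genes were Ugt2b37 and Ugt1a1, a count near the 11.1% of all genes. Ugt2b37 was at 9.49, 16.7 and 22.7 CPM on 17, 27 and 27 UMIs, a ratio of 2.39 (1.26 to 4.68). Ugt1a1 had 6, 9 and 9 UMIs and a ratio of 2.26 whose interval (0.718 to 7.72) held 1. At 0 h the ratios of Ugt2b37 and Ugt2b38, whose printed promoters share the run in capitals, were thus on opposite sides of 1. That of Ugt2b37 rests on few UMIs, and at 48 h it was 0.806 (0.417 to 1.49).

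Several abundant genes had higher levels in the perivenous group without reaching 2-fold. Ugt2b34 was at 495, 599 and 976 CPM, a ratio of 1.97 (1.80 to 2.15) that passed 2-fold when Cyp2e1 and Cyp2f2 were left out of the landmarks (log2 ratio 1.11). Sult2a8 was at 284, 400 and 511 CPM, a ratio of 1.80 (1.60 to 2.03), and Ugt2b1 at 697, 873 and 1075 CPM, a ratio of 1.54. Ugt2b5 was at 1332, 1489 and 1609 CPM, a ratio of 1.21, which was close to that of the median gene, and Ugt2a3 was nearly flat, with a ratio of 1.04 (0.898 to 1.19).

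At 48 h, 3.28% of all genes were at least 2-fold lower and 3.85% at least 2-fold higher in the perivenous group, with a median log2 ratio of 0.07. Of 14 genes at the level, Ugt2b38 was lower again, at 14.6, 6.31 and 4.81 CPM on 33, 10 and 6 UMIs. Sult2a8 was higher, at 38.05, 53.6 and 91.4 CPM. Ugt2b34 was at 477, 512 and 682 CPM, while Ugt2b5 was at 1338, 1272 and 1153 CPM and Ugt2b37 at 15.9, 12.0 and 12.8 CPM, within 2-fold. Sult5a1 had 15, 14 and 0 UMIs and was under the level. Sult1a1 had no steep gradient at either time, at 64.8, 86.3 and 83.3 CPM at 0 h and 514, 463 and 443 CPM at 48 h, so its higher level at 48 h was found in all 3 groups.

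**Figure D5:**
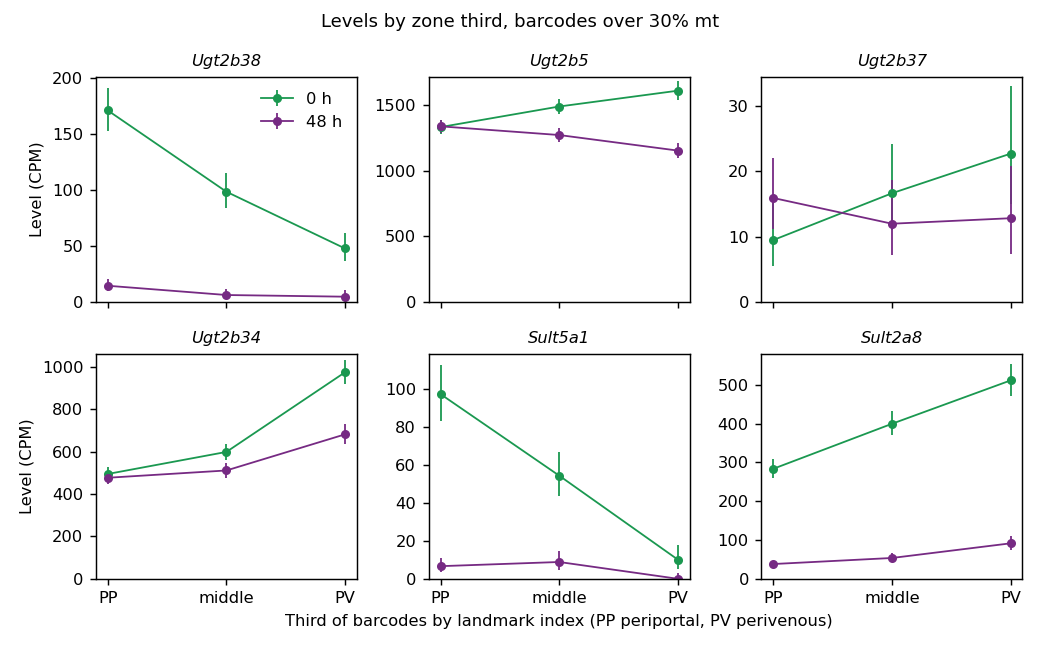
Levels (CPM) of 6 genes in barcodes over 30% mt are drawn for the periportal (PP), middle and perivenous (PV) groups of barcodes, in green for 0 h and purple for 48 h, with exact 95% counting intervals as bars. Ugt2b38 and Sult5a1 are lower in PV than in PP at 0 h (171 to 47.9 CPM and 97.1 to 10.1 CPM), Ugt2b34 and Sult2a8 are higher in PV at both times, and the 48 h levels of Ugt2b38, Sult5a1 and Sult2a8 lie far below those at 0 h.

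The genes around the transferases were described by lists, whose counts stand beside the shares of all genes given above, 30.9% higher and 5.14% lower over 30% mt, and 24.3% higher and 20.7% lower under 2% mt. With 4 to 11 genes at the level in each, a count near these shares is no result about the list. For UDP-glucuronic acid supply and use, 2 of 5 genes at the level were at least 2-fold higher over 30% mt, near the 30.9% of all genes, and none was lower. Ugp2, which makes UDP-glucose, had a ratio of 2.85 (2.50 to 3.27), and Ugdh, which oxidizes it to UDP-glucuronic acid, a ratio of 2.18 (1.98 to 2.41), whereas Pgm2 was at 1.20 and Slc35d1 at 0.933. Under 2% mt none of 5 was higher and 3 were lower, beside 20.7% of all genes. There Ugp2 and Ugdh were at 1.23 and 1.20. Uxs1, which uses up UDP-glucuronic acid to make UDP-xylose, was 3.20-fold lower. Slc35d1, a UDP-sugar transporter of the endoplasmic reticulum, was 2.48-fold lower.

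For the supply of PAPS and the removal of PAP, its remainder after sulfate transfer, 2 of 8 genes were higher over 30% mt. This was no more than the 30.9% of all genes, and both higher genes were PAPS synthases. Papss2 went from 55.9 to 150 CPM, 2.69-fold (2.36 to 3.08), and Papss1 from 3.63 to 8.82 CPM, 2.43-fold (1.42 to 4.29). The lowest ratios were those of Slc35b2 (0.674) and the sulfate transporter Slc26a1 (0.684). Under 2% mt, 4 of 7 were lower, beside 20.7% of all genes, and none was higher, with Papss2 at 1.18, Papss1 at 1.12, Slc26a1 2.57-fold lower and Slc35b3 2.93-fold lower. Genes of deconjugation (4 at the level) held no call over 30% mt, with ratios from 0.597 for Sumf1 to 1.57 for Gusb, the beta-glucuronidase. Under 2% mt, 2 of 4 were lower, beside 20.7% of all genes: Sumf1 and Arsb were 3.92-fold and 2.48-fold lower, and Arsa and Gusb were at 0.733 and 0.666.

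Of 6 transporters, 2 were lower over 30% mt, beside 5.14% of all genes, and 4 under 2% mt, beside 20.7%. The organic anion uptake carrier Slco1a1 went from 482 to 56.2 CPM over 30% mt, 8.57-fold lower, and was 18.5-fold lower under 2% mt. Slco1b2, which takes up bilirubin conjugates and bile acids, went from 1503 to 359 CPM, 4.18-fold lower, and was 8.10-fold lower under 2% mt. The highest ratios were those of Slco1a4 (1.62) and the canalicular exporter Abcc2 (1.24) over 30% mt, and of Slco1a4 (0.732) and Abcg2 (0.513) under 2% mt. Of 4 genes of bilirubin formation, 3 were higher over 30% mt, beside 30.9% of all genes, and 2 under 2% mt, beside 24.3%. Blvrb was at 2.65 and 3.15, Blvra, a biliverdin reductase, at 2.02 and 2.50, Hmox2 at 2.16 and 1.15, and Hmox1 at 1.21 and 1.95.

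Of the transcription factors that are known to act on these genes, 5 of 11 were higher over 30% mt, beside 30.9% of all genes, and 2 of 10 under 2% mt, which is near the 24.3% of all genes, and none was lower. Nfe2l2 (3.20) and Hnf4a (2.70) had the highest ratios over 30% mt and Arnt (0.990) and Nr1i3 (1.13) the lowest. Under 2% mt Ppara (2.17) and Nr1i2 (2.10) were highest and Ahr (0.776) and Cebpa (0.931) lowest. The median log2 ratio of the list was 0.88 over 30% mt and 0.36 under 2% mt, beside 0.55 and 0.05 for all genes.

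RefSeq promoters were found for 21 of the 24 described genes. The letters GTTAAT, a half-site of HNF1, were searched on both strands of the 250 bases before the start. They were in the promoters of 7 of the 21 genes (Sult1a1, Sult1d1, Ugt1a1, Ugt1a6a, Ugt1a9, Ugt2a3 and Ugt3a1) and in 6.43% of all 32851 promoters. The letters TTCNNNGAA, bound by STAT factors, were in 1 of the 21 (Ugt1a6a) and in 7.02% of all, and CAAAGTCCA, an HNF4 site, in none of the 21 and in 0.384% of all.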

How the data were processed

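Droplet scRNA-Seq was done on hepatocytes from undamaged liver and from liver at 48 h after PHx, 1 library each. Libraries were assigned to groups from their labels. Cell Ranger and build mm10 are named in the submitters' processing notes. The files the authors deposited hold raw UMI counts for each pair of gene and barcode, without normalization. The version, the annotation release and the read assignment were not given in the sources used here. No barcode was filtered out of the deposited lists. The genes, gene lists, markers and landmarks were chosen with earlier results of these data known.

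UMIs of 13 mt genes were set aside, and the rest were summed per gene over barcodes over 30% mt and under 2% mt and divided by their total (CPM). A gene was called at a 2-fold ratio of the libraries if its mean was at least 5 CPM, with a count of 0 set to 3 UMIs. Intervals of levels are exact Poisson, of shares Clopper-Pearson, and of ratios conditional binomial, all at 95%. A marker-rich barcode had at least 3 genes of a list and 1% of its non-mt UMIs from it. Every gene with at least 10 UMIs is accounted for, with full values where the mean reached 20 CPM in either class or the gene led its subfamily. Of each pathway list, the 2 highest and 2 lowest ratios are named. Gene positions were taken from GENCODE M21 (GRCm38), which is the build of mm10, and sequences from RefSeq and GENCODE transcripts, aligned with Biopython 1.88. Identity is the count of matching bases over the longer sequence. Python 3.11.15, NumPy 2.4.6, SciPy 1.17.1, edgeR 4.0.16 and DESeq2 1.42.0 were used, the last 2 for scaling only. The calls and intervals were tested on simulated data.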

Additional observations from a re-analysis of the deposited data

How the results depend on the processing

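No paired analysis was possible because each group held 1 library, and for the same reason no library could be left out. No ratio of a gene past 2-fold reversed under any alternative tried, and under other scalings the ratios of Sult1b1 in both classes and Ugt2b37 over 30% mt, which were within 2-fold, changed sign, as did Ugt2b35 over 30% mt (log2 ratio -0.17) when taken as a mean over barcodes (0.00062). Over 30% mt, the summed UGT ratio of 0.670 was 0.559 with all UMIs as the denominator, 0.454 with TMM scaling, 0.463 with DESeq2 size factors, 0.724 with a limit of 50% mt, 0.625 with a limit of 20% mt and 0.707 as a mean over barcodes. The summed SULT ratio of 1.16 reversed to 0.966, 0.784 and 0.799 under these 3 scalings, which divided every ratio by 1.20, 1.48 and 1.45, and was 1.23 and 1.10 under the other limits. Under 2% mt, the UGT ratio of 0.246 was 0.194 with TMM scaling, 0.206 with DESeq2 size factors, 0.237 with a limit of 5% mt, 0.259 as a mean over barcodes and 0.258 without the deepest 5% of barcodes, and the SULT ratio of 0.916 was 0.722, 0.766 and 0.850 with the first 3 of these. Without a filter on low levels, 3 genes were higher over 30% mt and 4 under 2% mt, in place of 1 in each, and 7 and 14 were lower in place of 6 and 12, by construction of the filter. Of 60 ratios across the lobule under other landmarks or wider groups, 9 moved beyond their counting interval and none of those past 2-fold reversed, and of 192 shares of barcodes, 144 moved without thinning or at 1000 UMIs. Depth left 2 UMIs of Ugt1a1 under 2% mt at 48 h, too few to narrow its ratio.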
